A study of Homo sapiens with 24 samples.

Results

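The 8 genes PCDH7, PCDH8, PCDH9, PCDH10, PCDH15, PCDH17, PCDH18 and PCDH20 encode protocadherins that lie outside the clustered protocadherin arrays of chromosome 5, and were described in maps of trimethylated lysine 20 of histone H4 (H4K20me3). They were taken by name from 19866 protein-coding genes on the primary chromosomes of hg38, and were chosen by a rule that used their kb under peaks and the position of those peaks in these same libraries, so their values are given as a description and carry no test. The maps came from HN-SCC-151, a wild-type line from a squamous cell carcinoma of the head and neck without human papillomavirus, profiled by CUT&RUN, in which an antibody-tethered nuclease releases the DNA around a mark. In the inhibitor arm, cells received DMSO (n = 3 libraries) or 2.5 µM A-196, an inhibitor of the methyltransferases SUV420H1 and SUV420H2 (n = 3). In the siRNA arm they received a control siRNA, siNC (n = 4), or siRNAs against SUV420H1 (siSUV420H1, n = 4). All treatments lasted 6 days, 500000 cells went into each reaction, and 14 of the 24 labelled samples were H4K20me3 libraries with a peak list. The study's design text gives 3 dishes per condition, so the origin of the 4 libraries of each siRNA group is not fully stated and the spread between them may be partly technical.

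Protocadherins are single-pass membrane proteins of the cadherin superfamily whose extracellular cadherin repeats bind mostly the same protein on a neighbouring cell. The delta protocadherins, to which PCDH7, PCDH8, PCDH9, PCDH10, PCDH17 and PCDH18 belong, are best known from neurons, where they guide axons and shape synapses, and several of them are described as silenced by DNA methylation in carcinomas. PCDH15 is the partner of CDH23 in the tip link that opens the transduction channel of inner ear hair cells. H4K20me3 is written mainly by SUV420H1 and SUV420H2 on H4K20me1 and is a mark of constitutive heterochromatin. Expression of the genes was not measured in the lists used.

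The gene starts come first. RefSeq promoter windows of GRCh38.p14, each 300 bases long with 250 bases before and 50 after the start, were matched for 6 of the 8 genes and gave 7 windows. PCDH10 and PCDH20 had no window, so their starts were not examined. The windows of the 3 longest genes are printed 5′ to 3′ on the gene's own strand, with every CG dinucleotide, which reads the same on both strands, in capitals.
PCDH9 start, chr13:67230287-67230586, minus strand: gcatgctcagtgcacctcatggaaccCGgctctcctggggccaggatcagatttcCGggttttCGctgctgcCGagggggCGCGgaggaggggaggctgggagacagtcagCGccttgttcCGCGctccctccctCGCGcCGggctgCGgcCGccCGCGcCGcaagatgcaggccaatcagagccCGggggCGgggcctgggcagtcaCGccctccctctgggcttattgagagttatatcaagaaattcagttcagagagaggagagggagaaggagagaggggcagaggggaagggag
PCDH15 outer start, chr10:55627893-55628192, minus strand: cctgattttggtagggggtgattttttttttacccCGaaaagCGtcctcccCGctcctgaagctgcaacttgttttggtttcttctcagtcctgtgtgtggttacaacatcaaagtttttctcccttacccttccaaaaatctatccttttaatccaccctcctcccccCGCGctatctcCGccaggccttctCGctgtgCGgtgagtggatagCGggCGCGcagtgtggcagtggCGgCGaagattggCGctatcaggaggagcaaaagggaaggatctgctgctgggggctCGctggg
PCDH15 inner start, chr10:54801182-54801481, minus strand: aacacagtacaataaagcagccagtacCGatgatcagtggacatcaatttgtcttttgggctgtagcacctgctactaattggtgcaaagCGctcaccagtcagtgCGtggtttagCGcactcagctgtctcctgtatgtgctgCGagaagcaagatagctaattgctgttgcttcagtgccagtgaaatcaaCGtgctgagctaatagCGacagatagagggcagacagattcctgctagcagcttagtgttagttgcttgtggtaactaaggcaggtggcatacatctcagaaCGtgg
PCDH7 start, chr4:30720119-30720418, plus strand: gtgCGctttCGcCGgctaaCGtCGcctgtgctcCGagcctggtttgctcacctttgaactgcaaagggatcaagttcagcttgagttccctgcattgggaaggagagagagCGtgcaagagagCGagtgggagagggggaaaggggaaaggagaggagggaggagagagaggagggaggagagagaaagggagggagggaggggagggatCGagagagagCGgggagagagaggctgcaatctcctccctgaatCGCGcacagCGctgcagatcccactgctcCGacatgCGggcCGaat

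The PCDH9 window held 20 CG dinucleotides and 65.7% G plus C, and the outer PCDH15 window held 15 and 54.3%. The inner PCDH15 window, which lies inside the long transcript, held 8 and 48%, and the PCDH7 window held 16 and 60.3%. Over 22199 windows of 15843 coding genes the median was 21 CG dinucleotides and 62.3% G plus C, and 98% of them held at least 1, so the outermost starts of PCDH9, PCDH15 and PCDH7 were near or below the middle of all starts. At least as many CG dinucleotides as in the PCDH9 window stood in 52.8% of all windows, and for the inner PCDH15 window the share was 73.9%.

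No library had an H4K20me3 peak over any of the 7 windows, against 2.266% to 4.30% of all coding windows per library. At such low shares 7 windows are too few to set these starts apart from coding starts at large. The peak nearest to the PCDH9 start lay 27.3 kb away in the closest library, with a median of 31.3 kb over the 14 libraries. For the outer PCDH15 start the closest peak was 60.9 kb away (median 115 kb), for the inner start 13.2 kb (median 307 kb), and for PCDH7 30.6 kb (median 300 kb). In its closest library the PCDH18 start came nearest to a peak, at 3.26 kb, but its median was 158 kb, above that of PCDH9.

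Across the whole genome, peaks covered 145 to 153 Mb in the DMSO libraries and 79.6 to 107 Mb with A-196, where the mean fell by 34.6%. They covered 183 to 193 Mb in the siNC libraries and 118 to 130 Mb after SUV420H1 knockdown, where the mean fell by 33.7%. Peaks were called against a separate IgG library in each arm, so levels of the 2 arms are set side by side and no difference between the arms was tested. The lists hold positions only, so the depth behind each value is unknown, and a gene without a peak may hold signal under the calling threshold.

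Peaks in the 8 genes were almost confined to PCDH9 and PCDH15, which together held 77.3% to 100% of the members' kb in each library and all of it in the 6 libraries of the inhibitor arm. They are also by far the longest of the 8 genes, at 928 and 1825 kb against at most 426 kb for any other. These shares are not corrected for length and do not set the pair apart from it. A gene was called marked when 200 bp or more of its RefSeq span, widened by 2 kb at either end, lay under peaks. By that measure 5 of the 8 genes were marked in at least 1 library, and PCDH9 and PCDH15 in all 14. PCDH8, PCDH18 and PCDH20 had no peak in any library.

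**Figure D1:**
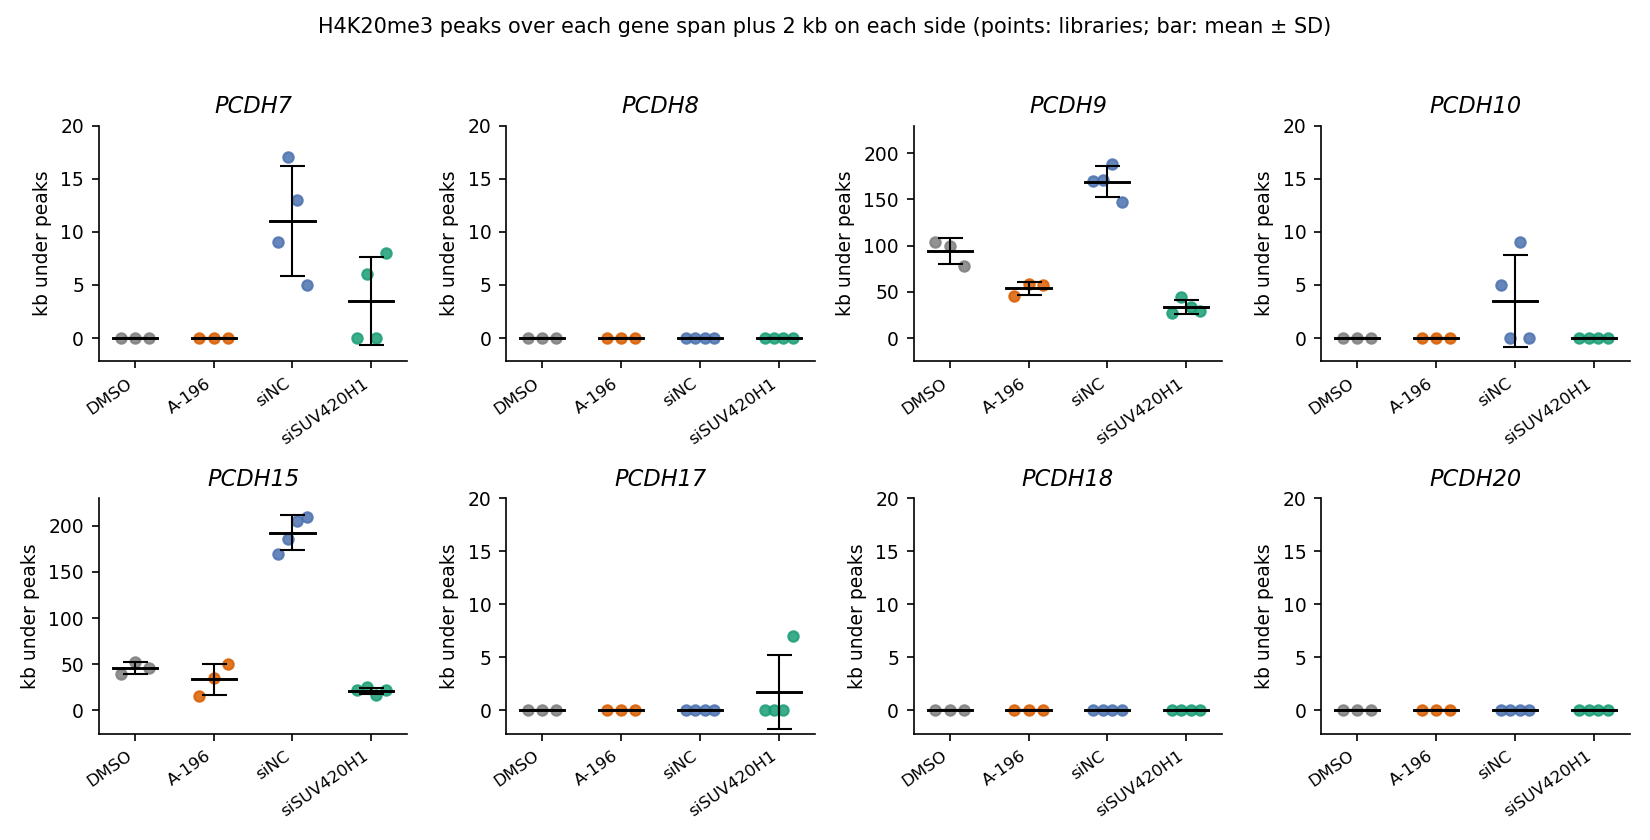
Kb under H4K20me3 peaks in each of the 8 genes, by group. Points are libraries, horizontal bars are means and whiskers are 1 SD, and the y axis runs to 230 kb for PCDH9 and PCDH15 and to 20 kb for the others. PCDH9 and PCDH15 have a peak in every library, and after SUV420H1 knockdown both lie below every siNC library.

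PCDH9 is a delta protocadherin of the brain with a span of 928 kb on the minus strand (chr13:66302834-67230336, hg38). Peaks covered 104, 100 and 78 kb of it in the 3 DMSO libraries and 46, 59 and 57 kb in the 3 A-196 libraries. The 2 groups did not overlap, with 19 kb between the lowest DMSO and the highest A-196 library. The means were 94 ± 14 kb (SD, n = 3) and 54 ± 7 kb (n = 3), so the level fell by 42.6%. Of the 5613 coding genes marked in any library of this arm, 19.5% (1093 genes) were below every control library and 3.87% (217 genes) were above. In this arm 2 of the 8 genes were marked, and PCDH9 was the only 1 of them below every control library. The choice of genes used these values, so no weight is placed on that count.

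When each library was scaled to its covered length, the PCDH9 difference shrank to -11 kb and the groups overlapped. PCDH9 had 0.634 ± 0.0825 kb under peaks per Mb covered in the DMSO libraries (n = 3) and 0.559 ± 0.0239 kb per Mb with A-196 (n = 3), 1.13-fold more in DMSO. The same scaling moved the split over all coding genes from 1093 lower and 217 higher to 768 lower and 508 higher.

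In the siRNA arm, PCDH9 had 170, 171, 188 and 147 kb under peaks in the 4 siNC libraries and 27, 44, 34 and 29 kb in the 4 siSUV420H1 libraries. All knockdown libraries lay far below all controls, with 103 kb between the nearest pair. The means were 169 ± 16.8 kb (SD, n = 4) and 33.5 ± 7.59 kb (n = 4), so the level fell by 80.2%, or 5.04-fold. Per Mb covered, the values were 0.900 ± 0.0717 kb (n = 4) and 0.269 ± 0.0558 kb (n = 4), so 3.35-fold remained after scaling.

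PCDH15, the tip link protocadherin and the longest of the 8 genes, spans 1825 kb on the minus strand (chr10:53802771-55627942). It had 169, 186, 205 and 210 kb under peaks in the siNC libraries and 22, 25, 17 and 22 kb after SUV420H1 knockdown. These groups stood 144 kb apart at their nearest libraries. The means were 192.5 ± 18.8 kb (SD, n = 4) and 21.5 ± 3.32 kb (n = 4), so the level fell by 88.8%, or 8.95-fold. It was 5.96-fold per Mb covered, from 1.026 ± 0.0999 kb to 0.172 ± 0.0206 kb per Mb (n = 4 each). Summed over the 8 genes, peaks covered 376 ± 27.4 kb in siNC (n = 4) and 60.25 ± 12.4 kb in siSUV420H1 (n = 4), and the sum fell by 84%.

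In the siRNA arm PCDH9 and PCDH15 were the 2 of 8 genes below every control library, and none of the 8 was above. A gene without a peak in an arm could not be called, and 2 of the 8 were marked in the inhibitor arm and 5 in the siRNA arm. Of the 3959 coding genes marked in any library of that arm, 33.7% (1336) were lower by the same rule and 10.4% (413) were higher. With each library scaled to its covered length the split was 936 lower and 1246 higher, and both genes stayed lower. None of the 8 genes was lost (marked in all controls and in none of the treated libraries) or gained (the reverse) in either arm. With A-196, 6.29% of the marked coding genes were lost and 2.87% gained, and after knockdown 15% were lost and 1.72% gained.

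With A-196, PCDH15 did not separate the groups. It had 39, 53 and 46 kb under peaks in the DMSO libraries and 16, 35 and 50 kb in the A-196 libraries, and the highest A-196 library exceeded 2 of the 3 DMSO libraries. The means were 46 ± 7 kb (SD, n = 3) and 33.7 ± 17.0 kb (n = 3), a difference of -12.3 kb that turned to +3.48 kb when libraries were scaled to their covered length. Without A-196 replicate 3 the difference was -20.5 kb and the groups no longer overlapped, and without A-196 replicate 1 it was -3.5 kb.

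Exact two-sided permutation tests over all marked coding genes could not separate single genes in either arm. The smallest p that 3 against 3 libraries allow is 0.1 (Benjamini-Hochberg adjusted 0.428 over 5613 genes), and no gene had an unadjusted p under 0.05. With 4 against 4 it is 0.0286 (adjusted 0.0647 over 3959 genes), where 1749 genes had an unadjusted p under 0.05 and none an adjusted one. The members' own values carry no p, since they were chosen with the data known.

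The number and the width of the peaks differed between the genes as well. PCDH9 had 6 to 9 peaks in DMSO libraries and 6 to 9 with A-196, while its widest peak measured 25 to 34 kb in DMSO and 9 to 19 kb with A-196. In the siRNA arm its peaks numbered 9 to 13 in siNC and 2 to 4 after knockdown, with widest peaks of 46 to 47 kb and 18 to 20 kb. PCDH15 had 18 to 23 peaks in siNC libraries and 2 to 3 after knockdown, with the widest 17 to 24 kb in siNC and 9 kb after knockdown. In the inhibitor arm PCDH15 had 3 to 5 peaks in DMSO libraries and 3 to 8 with A-196, and the widest measured 17 to 23 kb and 6 to 8 kb. Over the whole genome the median peak width was also lower with A-196, at 6 to 7 kb against 9 to 10 kb in DMSO. It was 9 kb in every library of the siRNA arm. The whole lists held 8430 to 8921 peaks in DMSO and 8505 to 13464 with A-196. They held 13818 to 14675 in siNC and 9325 to 10203 after knockdown. Narrower peaks with A-196 were therefore not particular to these genes.

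**Figure D2:**
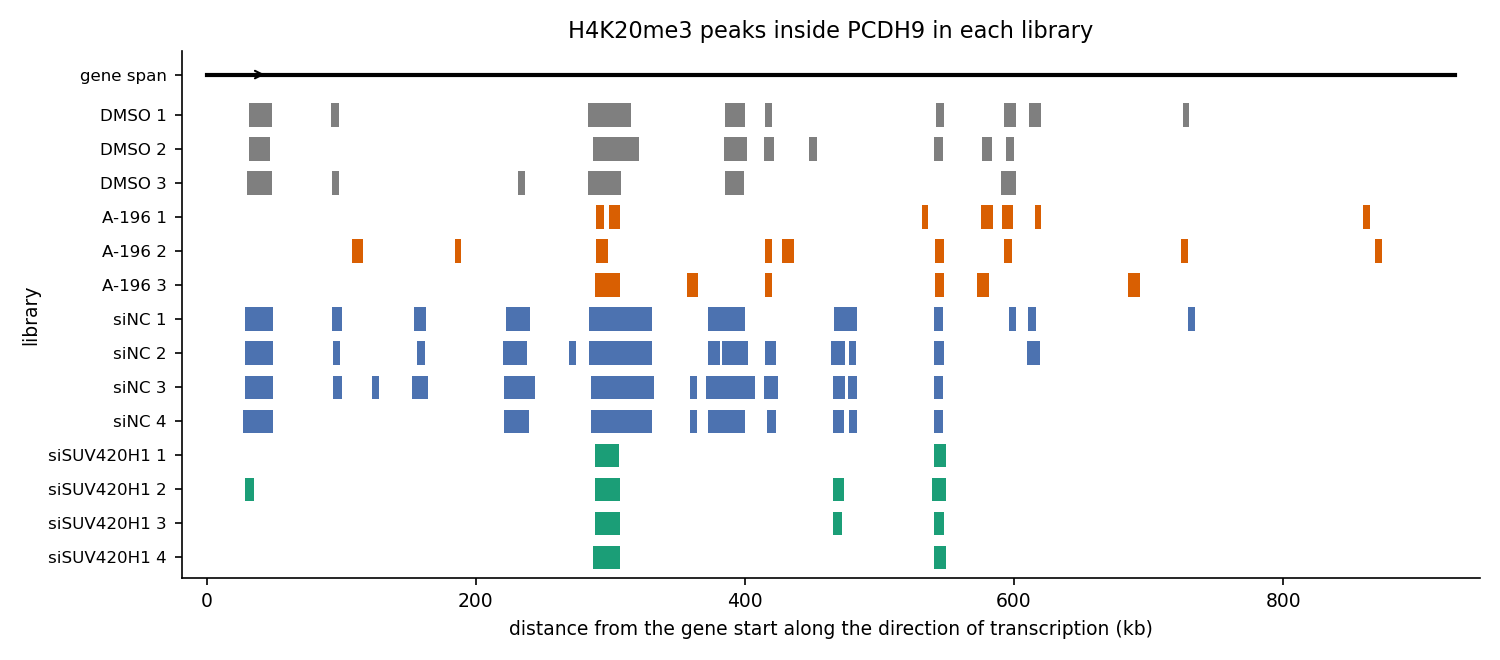
H4K20me3 peaks (bars) inside PCDH9 in each of the 14 libraries, by distance in kb from the gene start along the direction of transcription. A peak close to 289 kb is present in every library, and the siSUV420H1 libraries keep 2 to 4 of the 9 to 13 peaks seen in siNC.

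Within PCDH9 one place was marked in all 14 libraries, the 6 kb at chr13:66935001-66941000, which lie 289 to 295 kb downstream of the start. All 3 DMSO libraries shared 57 kb in 4 stretches, the longest of them 21 kb (287 to 308 kb from the start), and the stretch nearest the start lay 31.3 to 47.3 kb from it. Of those 57 kb, 51 kb were also under peaks in every siNC library. The 4 siNC libraries shared 128 kb in 8 stretches, the longest of them 46 kb at chr13:66899001-66945000. The 4 siSUV420H1 libraries shared 26 kb in 2 stretches, chr13:66682001-66690000 and chr13:66924001-66942000. The 3 A-196 libraries shared no more than the 6 kb common to all.

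Every peak that PCDH9 kept after SUV420H1 knockdown touched a place marked in siNC cells. Peaks of the siRNA arm merged into 15 regions, of which 6 were present in every siNC library, 2 of these in no siSUV420H1 library and 2 in every one. None of the 15 lay outside the siNC peaks, and 95.5% to 100% of the marked kb in each knockdown library was inside a siNC peak. The inhibitor arm gave 20 regions, of which 4 were present in every DMSO library, 2 of these in no A-196 library and 1 in every one. A further 8 regions were present in no DMSO library, and each of these 8 was found in 1 A-196 library. Of the kb in the A-196 libraries, 73.9%, 52.5% and 63.2% lay inside a DMSO peak, while each DMSO library had 75% to 89.7% inside peaks of the other DMSO libraries.

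**Figure D3:**
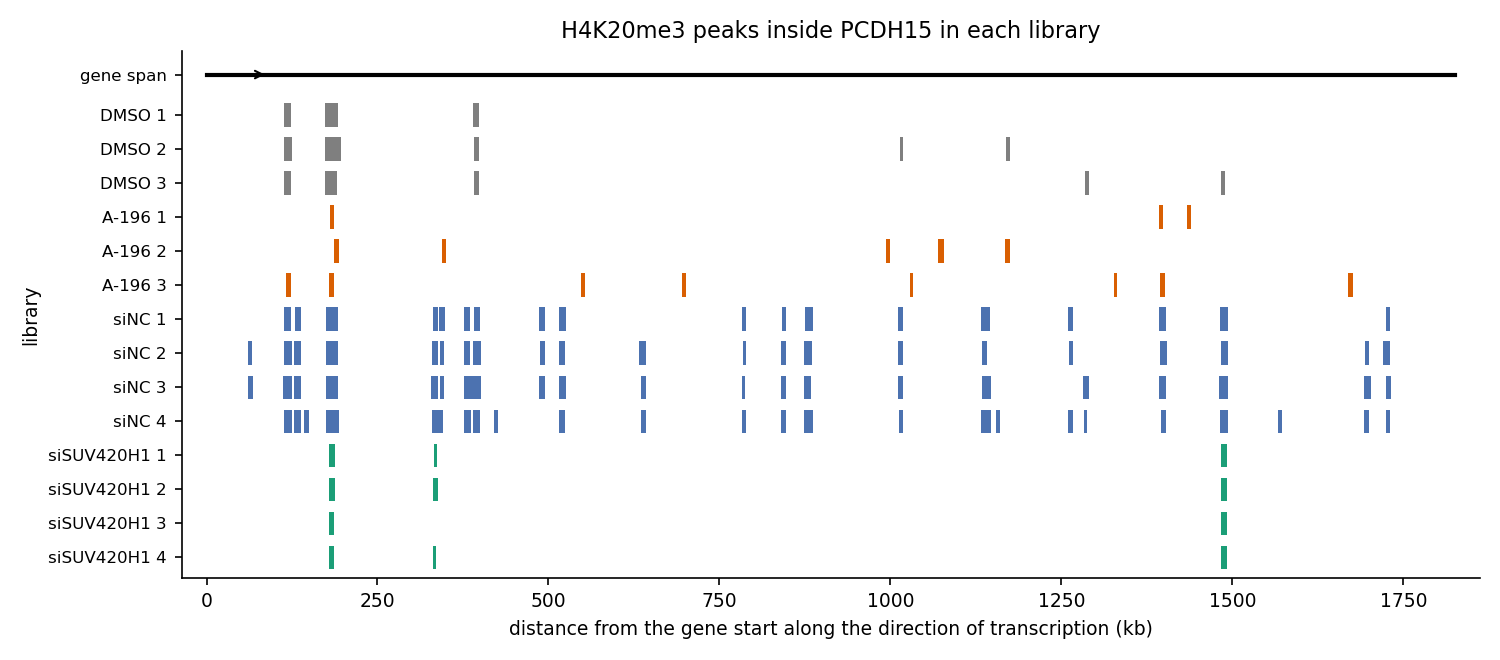
H4K20me3 peaks (bars) inside PCDH15 in each of the 14 libraries, by distance in kb from the gene start along the direction of transcription. The siNC libraries have 18 to 23 peaks along the whole gene, the DMSO libraries 3 to 5, mostly 113 to 399 kb from the start, and the siSUV420H1 libraries 2 to 3.

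PCDH15 had a different layout in the control cells of each arm. With the span divided into 4 equal parts from the start, DMSO libraries had 38.7 ± 3.51 kb of peaks in part 1, 0 in part 2, 5.67 ± 5.51 kb in part 3 and 1.67 ± 2.89 kb in part 4 (SD, n = 3). The siNC libraries had 82 ± 9.06, 45 ± 3.56, 30 ± 7.79 and 35.5 ± 5.20 kb in the same parts (n = 4), so their peaks ran along the gene. After SUV420H1 knockdown the parts held 12.8 ± 3.40, 0, 0 and 8.75 ± 0.500 kb (n = 4). In the A-196 libraries they held 10.7 ± 4.93, 3.67 ± 6.35, 10.7 ± 11 and 8.67 ± 7.77 kb (n = 3), which left part 1 as the one in which A-196 and DMSO libraries did not overlap. PCDH9 showed its longest mean length under peaks in part 2 in every group, from 19 ± 0.816 kb in siSUV420H1 (n = 4) to 95.5 ± 11.2 kb in siNC (n = 4).

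The stretches that all libraries of a group shared in PCDH15 were few outside siNC. The 3 DMSO libraries shared 35 kb in 3 stretches, at 391 to 399, 174 to 191 and 114 to 124 kb from the start, and 34 kb of it was also under peaks in every siNC library. The 4 siNC libraries shared 131 kb in 16 stretches. The 4 siSUV420H1 libraries shared 16 kb in 2 stretches, chr10:54136001-54144000, which lies 1484 to 1492 kb from the start, and chr10:55441001-55449000, at 179 to 187 kb. No base of PCDH15 was under a peak in all 3 A-196 libraries, although 91 kb was in at least 1 of them.

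Peaks that remained in PCDH15 after knockdown lay wholly within siNC peaks, at 100% of the kb in each of the 4 libraries. Of 24 merged regions in the siRNA arm, 14 were present in every siNC library, 11 of these in no siSUV420H1 library and 2 in every one. In the inhibitor arm 17 regions were found, of which 3 were present in every DMSO library, 1 of these in no A-196 library and 1 in every one. Another 10 were present in no DMSO library, and 9 of the 10 in 1 A-196 library. The share of kb inside DMSO peaks was 31.2%, 40% and 28% in the A-196 libraries, against 69.8% to 94.9% for each DMSO library inside the other DMSO peaks. These shares are not comparable between arms, since the siNC peaks of PCDH15 took 255 kb in any library and the DMSO peaks 66 kb.

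Peaks of replicate libraries overlapped least among the A-196 libraries. The mean Jaccard index, the shared marked length over the total marked length of a pair, was 0.709 for PCDH15 among siNC libraries (6 pairs), 0.790 among siSUV420H1 (6 pairs) and 0.640 among DMSO (3 pairs). Among A-196 libraries it was 0.0566 (3 pairs). For PCDH9 the values were 0.743 in siNC, 0.739 in siSUV420H1, 0.559 in DMSO and 0.197 in A-196, again lowest with A-196. These indices are descriptions over pairs that share libraries.

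PCDH7, a delta protocadherin also known from the heart and brain, spans 426 kb on the plus strand (chr4:30720369-31146800) and was marked in the siRNA arm alone. Peaks covered 9, 17, 13 and 5 kb in the siNC libraries and 0, 6, 0 and 8 kb in the siSUV420H1 libraries, so the groups overlapped. The means were 11 ± 5.16 kb (SD, n = 4) and 3.5 ± 4.12 kb (n = 4). All 4 siNC libraries and 2 of the 4 knockdown libraries had a peak at one place, whose common 5 kb in siNC (chr4:30752001-30757000) lay 31.6 to 36.6 kb from the start. Without siNC replicate 4 the groups no longer overlapped.

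PCDH10, which recruits the actin-regulating WAVE complex through its cytoplasmic tail, spans 59.3 kb at chr4:133149294-133208606. It had 5, 0, 9 and 0 kb under peaks in the siNC libraries and none in the other 10 libraries, and both peaks covered chr4:133185001-133190000. PCDH17, which is active at synapses, spans 99.2 kb at chr13:57630108-57729311 on the plus strand. It had a single 7 kb peak, chr13:57688001-57695000, in siSUV420H1 replicate 4 and none in the other 13 libraries.

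The surroundings of some weakly marked or unmarked genes held peaks of their own. Within 500 kb on both sides of PCDH18, a short delta protocadherin gene of 13.6 kb (chr4:137518918-137532494, minus strand), peaks covered 117, 122, 136 and 120 kb in the siNC libraries and 19, 24, 13 and 21 kb after knockdown. In the inhibitor arm they covered 21, 21 and 10 kb with DMSO and 5, 0 and 6 kb with A-196. Treated libraries were below all controls in both arms, as in the flanks of 33.4% of the 18989 coding genes with a flank peak in the inhibitor arm and of 65.6% of 18201 in the siRNA arm. The nearest peak lay 3.51 to 4.51 kb from the PCDH18 span in the siNC libraries and 145 to 146 kb after knockdown. With 10 kb in place of 2 kb added on each side, PCDH18 counted as marked in every siNC library and in no knockdown library.

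**Figure D4:**
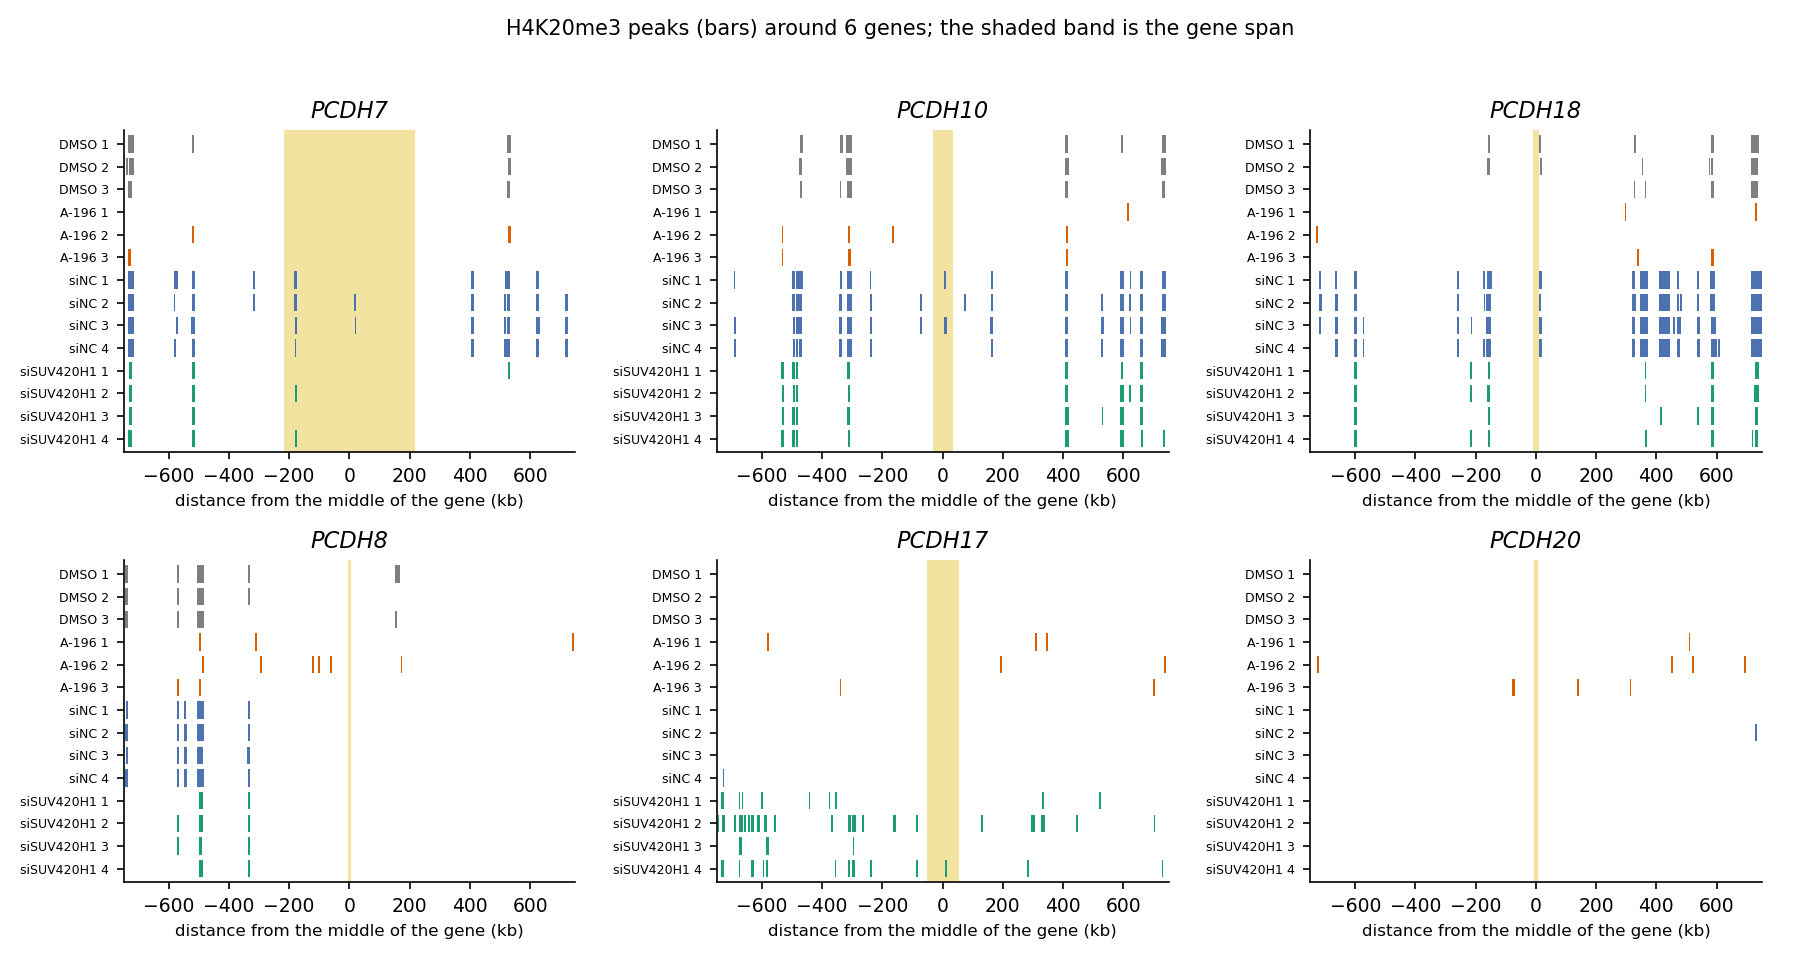
H4K20me3 peaks (bars) in each library within 750 kb of the middle of 6 genes, with the gene span shaded. Around PCDH7, PCDH10 and PCDH18 the siNC libraries carry the most peaks, while around PCDH17 peaks are seen in A-196 and siSUV420H1 libraries and within 500 kb of the gene in no control library.

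The 500 kb on both sides of PCDH10 and of PCDH7, both on chromosome 4 like PCDH18, held more peaks in siNC than after knockdown. For PCDH10 the means were 84.95 ± 9.51 kb (SD, n = 4) and 36.4 ± 2.85 kb (n = 4), and with DMSO and A-196 they were 42.7 ± 6.66 kb and 11.1 ± 9.65 kb (n = 3 each). For PCDH7 they were 61.5 ± 7.05 kb in siNC and 10 ± 3.37 kb after knockdown (n = 4 each). In neither gene did the siRNA groups overlap in these flanks. Counted over all members, the flanks of 5 of the 7 genes with a flank peak in the siRNA arm were lower (PCDH7, PCDH8, PCDH10, PCDH15 and PCDH18), near the 65.6% of all coding genes, and 3 of 8 with A-196 (PCDH10, PCDH15 and PCDH18), near 33.4%. For PCDH7 in the inhibitor arm the values were 16, 11 and 10 kb with DMSO and 0, 20 and 0 kb with A-196, which overlapped. The flanks of PCDH9 overlapped between groups in both arms, unlike the gene itself. They held 25, 22 and 19 kb with DMSO and 40.3, 79 and 12 kb with A-196. In the siRNA arm they held 61, 92, 82 and 55.3 kb in siNC and 47, 57, 28 and 64 kb after knockdown.

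The flanks of PCDH17 had peaks in treated libraries and in none of the controls. They held no peak in any DMSO or siNC library, with the nearest peak 2384 to 2413 kb away in DMSO and 676 to 1199 kb away in siNC. Peaks covered 10, 5 and 5 kb of the flanks in the A-196 libraries and 29, 83, 5 and 44 kb in the siSUV420H1 libraries. All treated libraries were above all controls in each arm, with a wide spread after knockdown (40.25 ± 32.7 kb, n = 4). Flanks higher by this rule were found for 11.6% of coding genes with a flank peak in the inhibitor arm and 6.51% in the siRNA arm, and PCDH17 was the 1 member among them in each.

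PCDH8 and PCDH20, the shortest genes at 5.75 kb (chr13:52842889-52848640) and 6.17 kb (chr13:61409685-61415849), stayed free of peaks. PCDH8, known as arcadlin for its induction by neuronal activity, had 28.1 kb of peaks in its flanks in each siNC library and 19 to 25 kb after knockdown. PCDH20 had none in its flanks in DMSO, siNC or siSUV420H1 libraries and 0, 5 and 17 kb with A-196. Its nearest peak in the DMSO libraries was 1224 to 1258 kb away.

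No other coding gene overlapped any of the 8 spans, so their peaks are not shared with a second coding gene. RefSeq lists lncRNAs within PCDH9 (among them PCDH9-AS1, PCDH9-AS2, PCDH9-AS3 and PCDH9-AS4) and within PCDH15, and the peaks cannot be assigned to them or to the host gene. The coding gene nearest to PCDH9 at higher coordinates was KLHL1, 2470 kb away, with 130 ± 25.9 kb under peaks in DMSO and 90.5 ± 13.8 kb with A-196 (n = 3 each). KLHL1 had 232 ± 36.8 kb in siNC and 67.7 ± 29.7 kb after knockdown (n = 4 each), so PCDH9 lies in a stretch of chromosome 13 whose next gene was marked over a longer part. The nearest coding gene on its other side, LOC647264, had no peak in any library.

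Long genes offer more room for a peak, so PCDH9, PCDH15 and PCDH7 were set among the 483 coding genes of at least 400 kb by the share of the span under peaks. PCDH9 had 10.1% of its span under peaks in DMSO, 5.80% with A-196, 18.1% in siNC and 3.60% after knockdown. In the same order 34, 21, 15 and 96 of the 483 genes had a higher share, so fewer genes stood above it with A-196 than in DMSO, and more after knockdown than in siNC. PCDH15 had shares of 2.51%, 1.84%, 10.5% and 1.18%, and 106, 146, 40 and 213 genes had a higher one. The medians over the 483 genes were 0%, 0.943%, 1.61% and 0.747%. Among genes of this length that were marked, 24.5% were lower and 15.8% higher with A-196, and 50.1% were lower and 11.1% higher after knockdown.

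**Figure D5:**
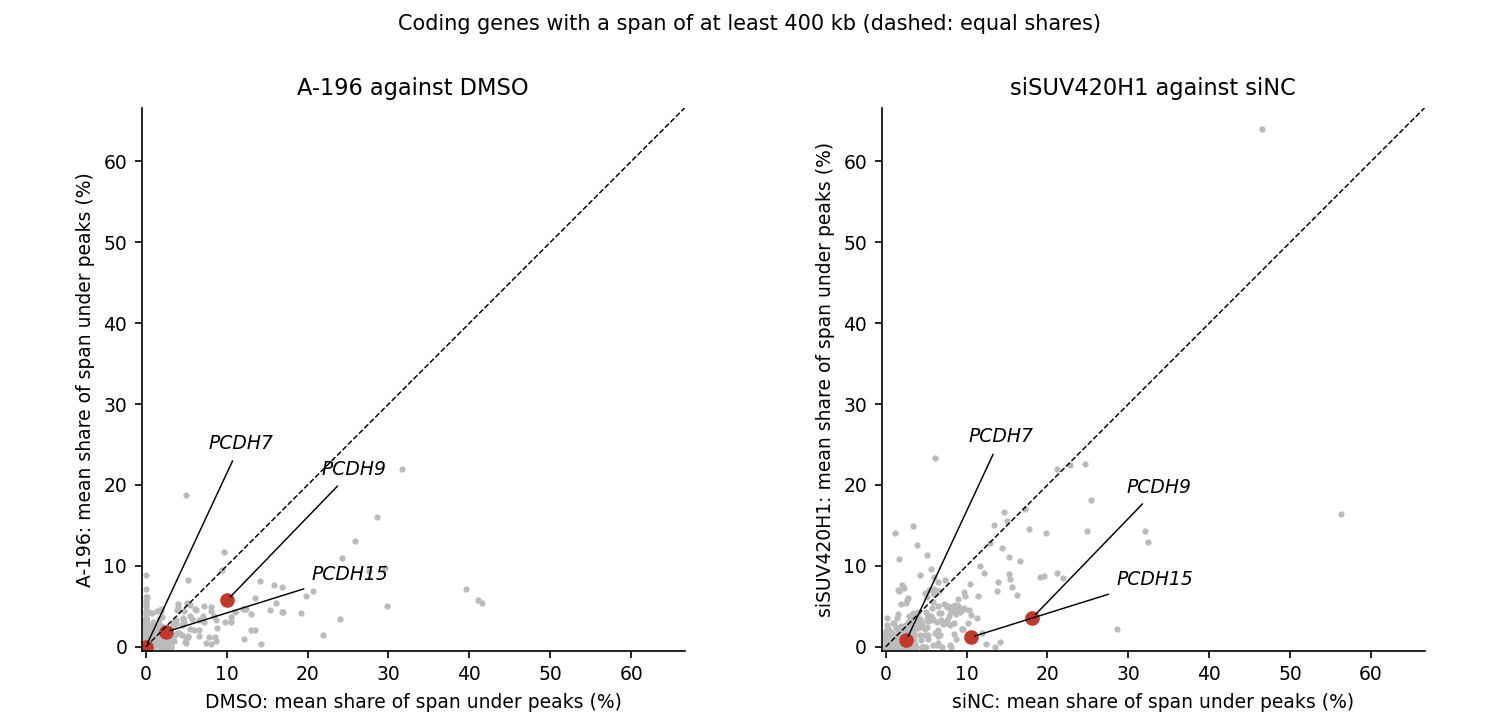
Mean share of the span under H4K20me3 peaks in treated against control libraries for 483 coding genes of at least 400 kb (grey points), with PCDH7, PCDH9 and PCDH15 in red and the line of equal shares dashed. PCDH9 lies at 10.1% in DMSO and 5.80% with A-196, and PCDH9 and PCDH15 lie far under the line after knockdown, at 3.60% against 18.1% and 1.18% against 10.5%.

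The control libraries of the 2 arms differed in level. The mean kb under peaks in PCDH15 was 4.18-fold higher in siNC than in DMSO libraries, against 1.80-fold for PCDH9 and 1.27-fold for the covered length of the genome. The treatment of the cells and the IgG library differ together between these controls and cannot be told apart.

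The pattern of PCDH9 over the 14 libraries was most like that of ST8SIA4 (Pearson r = 0.980) and PTPRO (r = 0.977), among 1921 coding genes with a group mean of at least 10 kb that lay on another chromosome or over 1 Mb away. For PCDH15 the closest were KCNH5 (r = 0.990) and PDE3B (r = 0.987), and PCDH9 and PCDH15 correlated at 0.932. ST8SIA4, a polysialyltransferase gene, had 8.33 ± 0.577 kb under peaks in DMSO (n = 3), 0 in each A-196 library, 19.25 ± 0.957 kb in siNC (n = 4) and 0 in each siSUV420H1 library. PDE3B, a phosphodiesterase gene, had 9 kb in each DMSO library, 1.67 ± 2.89 kb with A-196 (n = 3), 40.25 ± 4.27 kb in siNC (n = 4) and 0 in each siSUV420H1 library. These coefficients are descriptions, since the 14 points fall into 4 groups and share each library's covered length.

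The other non-clustered protocadherins of a fixed list had almost no peaks. PCDH1 and PCDH12 had none in any library, and PCDH11X (10 kb) and PCDH19 (5 kb) each had peaks in 1 A-196 library. Of the 53 clustered protocadherins, which share a chromosome 5 locus, none was lower or higher than all controls with A-196, and after knockdown none was lower and 22 were higher. A peak under overlapping spans was counted for each gene, so these calls may rest on the same peaks and are not separate places. Of these 53, 23 were marked in the inhibitor arm and 25 in the siRNA arm, where 10.4% of all marked coding genes were higher (413, or 1246 when scaled to covered length). The difference between the clustered genes and PCDH9 and PCDH15 in direction was not tested.

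Among 13 genes of the tip link and the transduction machinery that works with PCDH15, 3 were lower with A-196 and 1 was higher, and 4 were lower and none was higher after knockdown. Of the 13, 10 were marked in the inhibitor arm and 4 in the siRNA arm, where 19.5% and 33.7% of all marked coding genes were lower and 3.87% and 10.4% higher. The channel gene TMC1 fell from 148 ± 9.07 to 30.3 ± 8.08 kb with A-196 (n = 3 each) and from 140 ± 15.8 to 35.75 ± 4.5 kb after knockdown (n = 4 each). ADGRV1, which encodes the ankle link receptor, fell from 117 ± 6.66 to 25.1 ± 11.2 kb and from 57.7 ± 4.03 to 13.25 ± 6.55 kb in the same comparisons. TMC2, the paralog of TMC1, was lower in both arms. CDH23, the tip link partner of PCDH15, had no peak in DMSO and 12.6 ± 6.64 kb with A-196 (n = 3). The median difference over the 13 genes was +1.67 kb with A-196 and 0 kb after knockdown, against 0 kb over all 19866 coding genes in both arms.

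Of 15 further genes of the cadherin superfamily (FAT, Dachsous, CELSR and CDHR genes and CDH23), none was lower and 1 was higher with A-196 (6 marked), and 2 were lower after knockdown (3 marked). These were the atypical cadherin genes FAT1, from 6.25 ± 1.5 kb to 0, and FAT3, from 14.25 ± 1.5 to 8.75 ± 0.500 kb (n = 4 each). Of 15 cytoplasmic partners of delta protocadherins and WAVE complex genes, none was lower or higher in either arm, and 1 was marked in the inhibitor arm and 2 in the siRNA arm. Both lists had a median difference of 0 kb in each arm.

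Peaks cannot show which cell types were present, since a marker without H4K20me3 need not be expressed. Of 9 squamous epithelial markers, 2 were marked in each arm and TP63 alone was called. It was lower, at 222 ± 16.6 kb in DMSO and 78.6 ± 27.97 kb with A-196 (n = 3 each). In the siRNA arm it had 123 ± 4.57 kb in siNC and 54.0 ± 3.5 kb after knockdown (n = 4 each). Of 7 neuron markers, 3 were marked in the inhibitor arm and 4 in the siRNA arm. SYT1 and MAP2 were lower with A-196 and MAP2 after knockdown. After knockdown DCN was lost among 5 fibroblast markers (2 marked). Among 4 endothelial markers (3 marked) PECAM1 was lost and CDH5 was higher, and none of 4 leukocyte markers was marked in the siRNA arm. In the inhibitor arm 1 fibroblast, 2 endothelial and 1 leukocyte marker were marked, and none of them was called. Over all marked coding genes, 19.5% were lower with A-196. After knockdown 33.7% were lower, 10.4% higher and 15% lost.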

How the data were processed

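Broad peaks from 14 H4K20me3 CUT&RUN libraries were used, grouped by title; IgG, H3K4me3 and H3K27me3 samples were not analysed here. The deposited lists hold where each peak starts and ends, with neither scores nor reads. The authors' genome build was hg38, and their tools included cutadapt 4.4, bedtools 2.30.0, Picard 2.27.3 and Bowtie, per the submitters' processing notes. Names of the deposited lists, per the labels, give duplicate removal and calling of every library on its own against 1 IgG library per arm: DMSO IgG for the inhibitor, and for the siRNA arm an IgG sample whose label names no treatment. Which peak caller was run is not given in the sources used here. Peak ends fell on a 1000 bp grid, which hides smaller shifts. Unequal depth or enrichment could alter which peaks were called.

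Kb under peaks were summed over RefSeq spans (GRCh38.p14) plus 2 kb on each side with Python 3.11.15, numpy 2.4.6, pandas 2.3.3 and scipy 1.17.1. A gene was lower (higher) where every treated library was below (above) every control library, lost where marked in all control and no treated libraries. The counting was tested on simulated data. Named genes were the 8 members, 4 other non-clustered protocadherins, up to 4 called genes per list, direction and arm, the nearest coding genes, and the 2 genes of most similar pattern; neighbours not named in the text are left out for brevity, and 1 called gene of a list is not reported here. The members and lists were chosen with earlier results of these data known. Alternatives covered the overlap minimum, flank, peak width, number of peaks, merging of nearby peaks, scaling to covered length, replicate pairing and leaving out each library; the comparisons with genes of at least 400 kb and with the 500 kb flanks of all coding genes were added after seeing the data.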

Additional observations from a re-analysis of the deposited data

Results flagged for a closer look

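PCDH17 had 7 kb under peaks in siSUV420H1 replicate 4 and 0 kb in the other 3 libraries of its group, which set that library apart from the rest. Among 10 groups of values examined in this way it was the only one, and any single library with a peak beside 3 at 0 kb would stand apart in the same way. Only the siRNA arm was examined, since groups of 3 libraries were left out. PCDH11X and PCDH19, with peaks in A-196 replicate 2 alone, were therefore not examined in that group. In the 500 kb on both sides of the gene, that library had 44 kb under peaks and siSUV420H1 replicate 2 had 83 kb, so it was not the highest there.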

How the results depend on the processing

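With A-196, scaling libraries to their covered length left 0 members lower, turned the PCDH15 difference to 3.48 kb, reduced the sum over the 8 members to -7.52 kb and gave 508 coding genes higher; the cause was not tested. With only peaks at or above the median width, 2 members were lower and 41 coding genes higher. Leaving out each library in turn gave 1 to 2 members lower (2 without A-196 replicate 3) and 230 to 537 coding genes higher, up from 217 since fewer libraries must agree, with 474 without A-196 replicate 1, 333 without A-196 replicate 2 and 537 without A-196 replicate 3. In the siRNA arm the sum over the 8 members was -236 kb with peaks at or above the median width, -233 kb with the same number of widest peaks per library and -285 kb when scaled. The same number of widest peaks gave 858 coding genes lower, scaling gave 1246 higher, and a 10 kb flank gave 1 member lost (PCDH18, -5.74 kb). Of the recomputed sums and counts, 181 moved by less than the replicate spread or 1.5 times and 15 by more. Of 224 single-gene values, 214 and 9 did, and 1 reversed. Many of the 214 were genes without a peak that stayed at 0 kb, and counts of 0 members higher, lost or gained are among the 181. Such values could hardly move, so neither total measures stability. Replicate numbers did not pair the libraries (same-numbered correlations -0.140 to -0.00658 and -0.511 to 0.138); a replicate block gave 1 and 2 members lower, and 1208 and 1435 coding genes lower with 247 and 488 higher.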
